A study of Mus musculus with 6 samples.

Results

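The 10 genes described here make, cut or bind hyaluronan, and all 10 were found by symbol among the 57180 Ensembl genes of the deposited count table. They are the hyaluronan synthase genes Has1, Has2 and Has3, the hyaluronidase genes Hyal1 and Hyal2, the hyaluronan depolymerase gene Cemip, the receptor gene Cd44, the secreted binding protein genes Tnfaip6 and Hapln1, and the proteoglycan gene Vcan. Their transcripts were counted in 6 libraries of mouse calvaria-derived cells, a culture grown from the flat bones of the skull roof, held in osteogenic medium with serum, ascorbate and β-glycerophosphate. The 3 wt libraries came from C57BL/6 cells. The 3 other libraries, labelled FasL KO and called gld here, came from cells of B6Smn.C3-Faslgld/J mice, which carry gld on both alleles of Fasl, the gene for Fas ligand. The gld allele is a point mutation rather than a deletion, the mutant strain was bought in, and nothing in the labels says that the C57BL/6 controls were littermates. The protocol also describes gld cells given recombinant Fas ligand from day 14 for 72 h beside parallel wt and gld cultures. The titles of the 6 libraries do not name this treatment, and whether they come from those parallel cultures is not stated. The labels give neither the age of the donors nor the day on which these 6 libraries were taken. Whether replicate libraries stand for separate animals or cultures is not stated, and p-values then reflect the spread between these 6 libraries alone, which may be technical.

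Hyaluronan is a long unbranched sugar polymer that hyaluronan synthases spin out through the plasma membrane from nucleotide sugars inside the cell. In the matrix it is held by proteins with link modules: the chondroitin sulfate proteoglycan versican (Vcan), link protein (Hapln1), which clamps proteoglycan to hyaluronan, TSG-6 (Tnfaip6), which moves heavy chains of inter-alpha-inhibitor onto hyaluronan, and the cell surface receptor CD44. Breakdown starts outside or at the surface of the cell, by CEMIP or HYAL2, and ends in lysosomes with HYAL1 and exoglycosidases. In bone and cartilage this matrix surrounds mesenchymal cells before and during skeletal differentiation.

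The promoters of the members that changed most are shown because 2 of these genes were higher and 1 was lower in gld. Each runs from 250 bases before to 50 bases after the annotated start in RefSeq on GRCm38.p6, read 5′ to 3′ on the strand of the gene. Capitals mark matches to the motifs searched. RefSeq windows were matched by symbol for 8 of the 10 members, and Has2 and Has3 had no entry.
Tnfaip6 (chr2:52037863-52038162, plus strand): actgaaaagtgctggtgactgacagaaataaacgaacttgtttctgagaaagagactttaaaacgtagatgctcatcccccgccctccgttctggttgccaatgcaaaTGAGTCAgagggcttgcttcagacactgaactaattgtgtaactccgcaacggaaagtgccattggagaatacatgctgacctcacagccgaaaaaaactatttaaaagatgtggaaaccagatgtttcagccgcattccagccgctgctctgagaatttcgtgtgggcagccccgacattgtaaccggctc
Vcan (chr13:89742463-89742762, minus strand): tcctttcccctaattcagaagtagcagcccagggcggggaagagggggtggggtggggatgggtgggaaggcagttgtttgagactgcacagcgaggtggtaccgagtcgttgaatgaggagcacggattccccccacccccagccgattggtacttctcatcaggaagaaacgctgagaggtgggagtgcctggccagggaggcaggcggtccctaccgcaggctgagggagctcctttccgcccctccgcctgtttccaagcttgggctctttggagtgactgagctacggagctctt
Cemip (chr7:84086456-84086755, minus strand): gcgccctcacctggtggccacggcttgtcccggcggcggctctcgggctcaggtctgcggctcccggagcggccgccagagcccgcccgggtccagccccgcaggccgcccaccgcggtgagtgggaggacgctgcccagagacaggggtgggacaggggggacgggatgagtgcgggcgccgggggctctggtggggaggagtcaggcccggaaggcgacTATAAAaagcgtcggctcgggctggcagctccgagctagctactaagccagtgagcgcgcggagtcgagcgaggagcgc

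G and C made up 47% of the Tnfaip6 window, 61% of the Vcan window and 73.7% of the Cemip window, against a median of 52.7% over 32851 promoter windows. The motifs, searched on both strands, were the TATA box (TATAAA), AP-1 (TGANTCA), the cyclic AMP response element (TGACGTCA), C/EBP (TTGCNNAA), the E-box (CACGTG), TCF/LEF (TCAAAG), SMAD (GTCTAGAC), the hypoxia response element (ACGTG, which lies inside the E-box) and NF-kB. Cemip held a TATA box from position -29, a motif found in 13.6% of all windows. Tnfaip6 held an AP-1 match from position -142, found in 7.81% of all windows. The Vcan window held no match to any of the motifs. Among the other members, Has1 held a cyclic AMP response element from position -83, found in 1.79% of all windows, and a C/EBP match from position -4, found in 10.8%. Hyal2 held an NF-kB match from position -238, found in 4.51%, and Cd44 a hypoxia response element from position -29, found in 19.6%. A match describes letters and not a bound site, and no binding was measured.

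Of the 10 genes, 4 differed between the genotypes. Tnfaip6, Vcan and Has2 were higher in gld, by 7.80-fold, 4.28-fold and 1.93-fold, and Cemip was 3.17-fold lower. Has1, Cd44 and Hapln1 were tested and did not pass, and Has3, Hyal1 and Hyal2 had too few counts to be tested. A gene was tested where at least 3 libraries reached the level of 10 counts in a library of median size, and it had 15 counts in total. Fewer counts were thus needed in smaller libraries. Genes were called by edgeR's quasi-likelihood test at an adjusted p of 0.05, with Benjamini-Hochberg adjustment over all 8692 genes tested. Among all tested genes 17.4% were called, 9.74% higher and 7.69% lower in gld, or 847 and 668 genes, and with scaling by library size alone 720 higher and 975 lower. The median log2 fold change, gld minus wt, was 0.02 over all tested genes. Library size alone moved it to -0.14, and under that scaling the same 4 members were called in the same directions. The groups did not overlap in the 4 called members, and did not overlap in 33.3% of all tested genes.

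**Figure D1:**
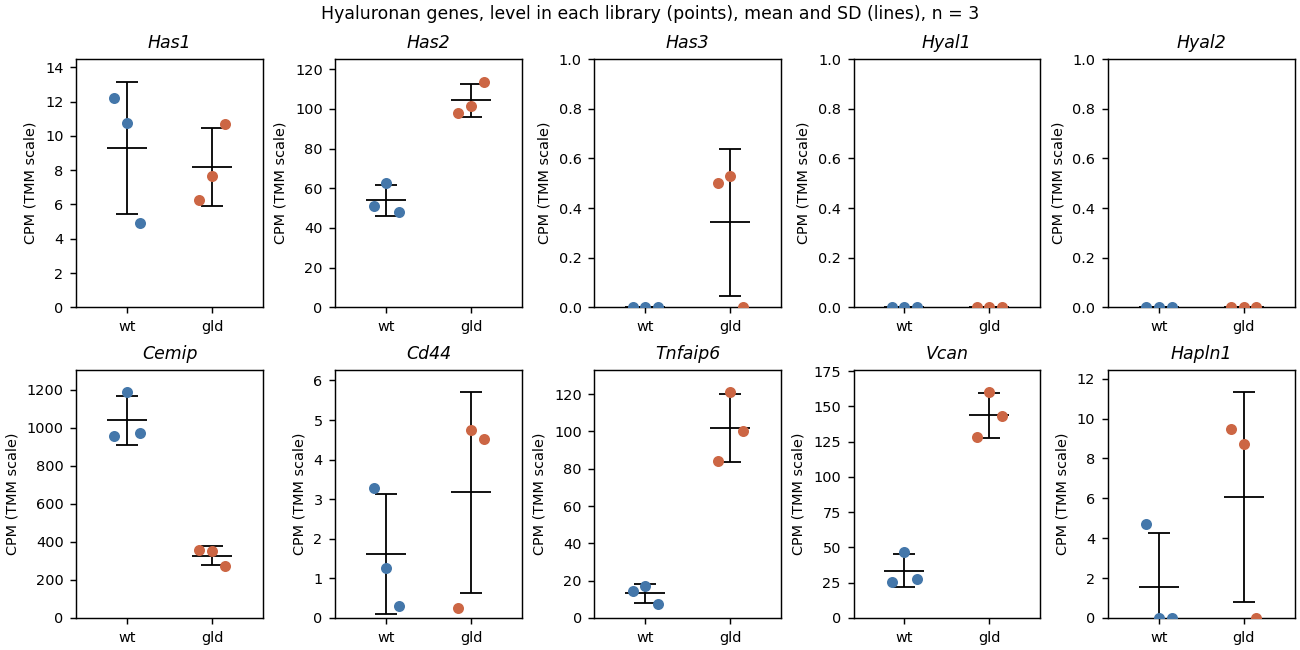
Level of each of the 10 genes in CPM on the TMM scale (y axis, linear and starting at 0) in the wt and gld libraries (x axis), with 1 point per library and lines at the mean and SD of 3 libraries. Has2, Tnfaip6 and Vcan lie higher in every gld library than in any wt library and Cemip lower, while Hyal1 and Hyal2 are at 0 throughout. The lower SD line of Hapln1 in wt falls under 0 and is not drawn.

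Has2 encodes the synthase that makes most of the hyaluronan in many mesenchymal cells. It lies on GRCm38 chromosome 15 from 56665627 to 56694539, minus strand (ENSMUSG00000022367), and has a single annotated transcript. It had 109, 198 and 156 counts in the wt libraries and 392, 384 and 554 in the gld libraries. On the TMM scale its levels were 51.2, 62.6 and 47.9 CPM (counts scaled to library size) in wt and 97.8, 101.3 and 113.7 CPM in gld. Every gld library was thus above every wt library, and the libraries within a group lay close together. The means were 53.9 ± 7.71 and 104.3 ± 8.38 CPM (SD, n = 3). The log2 fold change was 0.95 ± 0.19 (SE), with a 95% interval from 0.53 to 1.37 and an edgeR adjusted p = 0.00277. In size it ranked 628 among the 847 genes called higher. The antisense RNA Has2os, which overlaps the 5′ part of Has2 on the other strand, had 2 counts in all 6 libraries, both in wt 2.

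Has1 and Has3 encode the other synthases. Has1 (ENSMUSG00000003665, chromosome 17) had 26, 34 and 16 counts in the wt libraries and 25, 29 and 52 in the gld libraries, or 9.29 ± 3.86 against 8.19 ± 2.27 CPM (SD, n = 3), and the groups overlapped. Its log2 fold change was -0.17 ± 0.58 (SE) at an edgeR adjusted p = 0.908. The 95% interval ran from -1.41 to 1.07, so a change of the size seen for Has2 was not excluded. The value was 0.07 without wt 1, and it stayed under 0 in the 14 other alternatives. Has3 (ENSMUSG00000031910, chromosome 8) had no count in wt and 2, 2 and 0 counts in gld, and was not tested. A count of 0 over the wt group allows up to 0.351 CPM by counting error alone. The ratio of Has2 to Has1 within each library is given further on.

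Cemip, also known as HYBID or KIAA1199, is needed for hyaluronan depolymerization at the surface of fibroblasts in human and mouse. The gene lies on GRCm38 chromosome 7 from 83932857 to 84086502, minus strand (ENSMUSG00000052353). It had 2034, 3752 and 3162 counts in the wt libraries and 1433, 1340 and 1332 in the gld libraries. Levels were 955.8, 1186 and 970.8 CPM across wt and 357.5, 353.3 and 273.4 CPM across gld, so that all wt libraries lay far above all gld libraries. The means were 1038 ± 129 and 328.1 ± 47.4 CPM (SD, n = 3). The log2 fold change was -1.66 ± 0.14 (SE), with a 95% interval from -1.96 to -1.37 and an edgeR adjusted p = 6.72e-07, the smallest among the 10 genes. It ranked 239 in size among the 668 genes called lower. The neighbouring genes Mesd and Abhd17c had log2 fold changes of -0.14 ± 0.14 and -0.32 ± 0.20 (SE), with edgeR adjusted p = 0.616 and 0.341.

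The hyaluronidase genes were not measured by these counts in a usable way. Hyal1 and Hyal2, which lie next to each other on chromosome 9 and encode the lysosomal and the surface-anchored hyaluronidase, were listed at 0 in all 6 libraries. By counting error alone this allows up to 0.351 CPM over wt and 0.237 CPM over gld. Reads in these libraries come from the 3′ end of a transcript. For 4 of the 10 members, Hyal1, Hyal2, Cd44 and Vcan, the last 300 exonic bases are shared by more than 1 of their annotated transcripts. Of the bases in these ends, 0% for Hyal1 and 1% for Hyal2 lie in a single annotated transcript, and exons of Naa80 and Hyal3 also cover the end of Hyal1. Among protein-coding genes 57.3% of 10586 with a shared end were listed at 0 in every library, against 38% of 11206 with an end in a single transcript. The counts of 0 therefore set no firm bound on the Hyal1 and Hyal2 transcripts, and whether shared ends account for them was not tested. Naa80, which overlaps Hyal1 on the same strand, had 720 counts and a log2 fold change of -0.43 ± 0.30 (SE, edgeR adjusted p = 0.424).

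Tnfaip6 encodes TSG-6, a secreted link-module protein induced in inflammation and in the ovarian cumulus. The gene lies on GRCm38 chromosome 2 from 52038009 to 52056686, plus strand (ENSMUSG00000053475). It had 31, 54 and 25 counts in the wt libraries and 338, 459 and 487 in the gld libraries. Levels were 14.6, 17.1 and 7.68 CPM across wt and 84.3, 121 and 99.97 CPM across gld, without overlap. The means were 13.1 ± 4.87 and 101.8 ± 18.4 CPM (SD, n = 3). The log2 fold change was 2.96 ± 0.30 (SE), with a 95% interval from 2.32 to 3.60 and an edgeR adjusted p = 4.97e-06. It was the largest change among the called members and ranked 265 among the 847 genes called higher. Its promoter is the one with the AP-1 match, whose use in these cells was not measured.

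Vcan encodes versican, a large chondroitin sulfate proteoglycan that binds hyaluronan through its amino-terminal link modules. The gene lies on GRCm38 chromosome 13 from 89655312 to 89742509, minus strand (ENSMUSG00000021614). It had 55, 148 and 89 counts in the wt libraries and 514, 607 and 698 in the gld libraries. Levels were 25.9, 46.8 and 27.3 CPM across wt and 128.2, 160.1 and 143.3 CPM across gld, without overlap. The means were 33.3 ± 11.7 and 143.9 ± 15.9 CPM (SD, n = 3). The log2 fold change was 2.10 ± 0.24 (SE), with a 95% interval from 1.59 to 2.61 and an edgeR adjusted p = 1.67e-05. Up to 5 of its 9 annotated transcripts cover parts of its 3′ end, and the counts cannot tell its splice forms apart. As for Hyal1, none of the bases of this end lies in a single annotated transcript. Whether its counts miss a part of its transcripts was not tested. The counts are per gene without a stated strand setting. The antisense gene model Gm4117, which overlaps Vcan, had 1, 0 and 10 counts in the wt libraries and 31, 9 and 20 in the gld libraries (edgeR adjusted p = 0.349), far fewer than Vcan.

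Hapln1, the link protein gene, is the nearest protein-coding neighbour of Vcan at lower coordinates, 43659 bases away on the other strand of chromosome 13. It had 10, 0 and 0 counts in the wt libraries and 38, 33 and 0 in the gld libraries (ENSMUSG00000021613). Within each group at least 1 library was at 0, and the groups overlapped. The log2 fold change was 2.04 ± 1.58 (SE), with a 95% interval from -1.36 to 5.45 and an edgeR adjusted p = 0.473. It was 7.53 without wt 1, which held every wt count, 1.42 without wt 2, 1.41 without wt 3 and 2.83 with the replicate block, and it was called under none of the alternatives. On the other side of Vcan and closer to it, at 31517 bases, Xrcc4 had a log2 fold change of 0.53 ± 0.83 (SE, edgeR adjusted p = 0.764).

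Cd44 encodes the main cell surface receptor for hyaluronan, carried by mesenchymal and blood cells alike. It lies on chromosome 2 (ENSMUSG00000005087) and had 7, 4 and 1 counts in the wt libraries and 1, 18 and 22 in the gld libraries, or 1.62 ± 1.52 against 3.17 ± 2.53 CPM (SD, n = 3). The lowest gld library lay under all wt libraries and the other gld libraries lay above them. The log2 fold change was 1.01 ± 1.23 (SE), with a 95% interval from -1.63 to 3.65 and an edgeR adjusted p = 0.683, and it was 1.97 without wt 1. None of the last 300 exonic bases of Cd44 lies in a single transcript, and at most 22 counts in a library give no usable comparison.

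**Figure D2:**
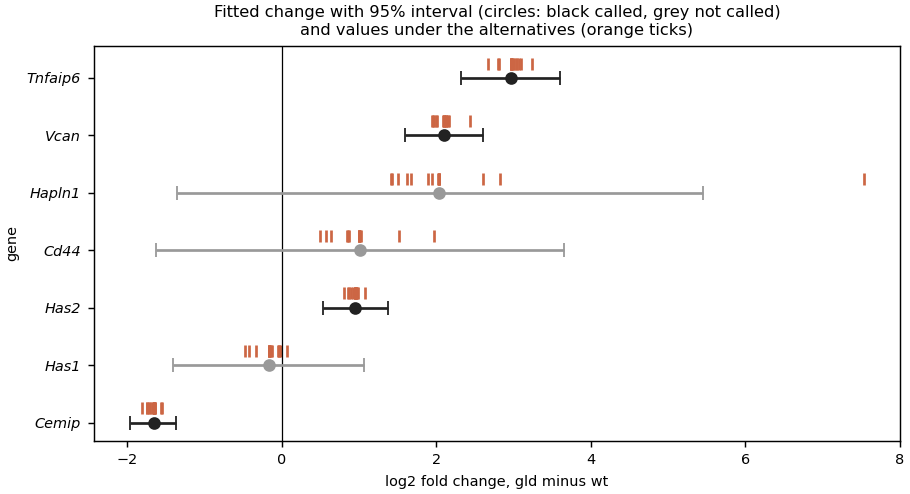
Fitted log2 fold change, gld minus wt (x axis), of the 7 tested members (y axis), with circles at the value, bars for the 95% interval and ticks for the value under each alternative. The intervals of Tnfaip6, Vcan, Has2 and Cemip lie away from 0 with all ticks on the same side, and those of Hapln1, Cd44 and Has1 span 0.

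Ratios of counts within a library do not depend on how libraries are scaled, and 4 were computed after the counts had been seen. They compare genotypes, not the amounts of different transcripts. Has2 over Cemip was 0.0536, 0.0528 and 0.0493 in wt and 0.274, 0.287 and 0.416 in gld, a 6.16-fold difference. The ratio of the synthase to the depolymerase transcript was nearly the same in the 3 wt libraries and higher in each gld library. Tnfaip6 over Has2 was 0.284, 0.273 and 0.16 in wt and 0.862, 1.195 and 0.879 in gld, a 4.18-fold difference. Vcan over Has2 was 0.505, 0.748 and 0.571 in wt and 1.31, 1.58 and 1.26 in gld, a 2.30-fold difference. Has2 over Has1 was 4.19, 5.82 and 9.75 in wt and 15.7, 13.2 and 10.7 in gld, a 2.10-fold difference. In each of the 4 ratios the groups did not overlap, and the two-sided exact permutation p = 0.1, also after Benjamini-Hochberg adjustment over the 4, is the smallest that 3 against 3 libraries can give, so that this test could not reach 0.05. The genes in the ratios were chosen with their calls known.

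**Figure D3:**
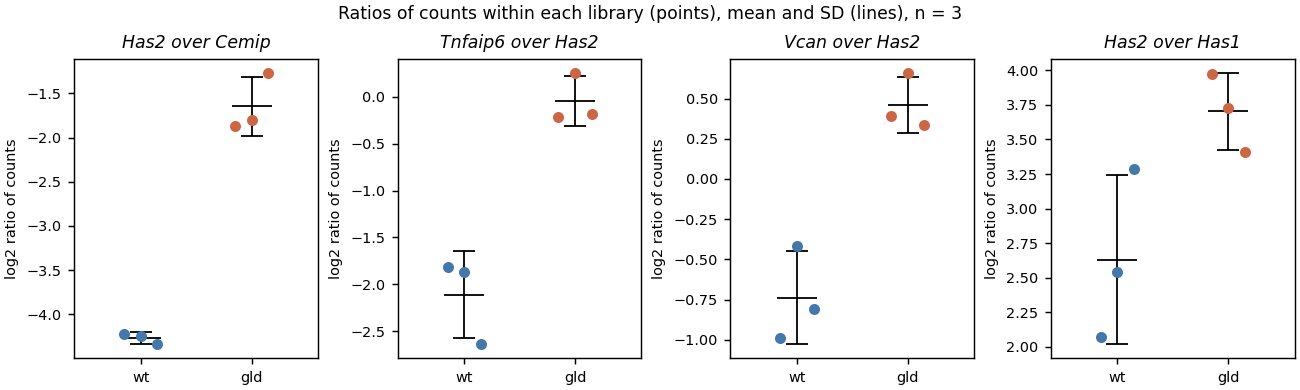
Log2 ratio of the counts of 2 genes within each library (y axis) in wt and gld (x axis), with 1 point per library and lines at the mean and SD of 3 libraries. Has2 over Cemip rises from between 0.0493 and 0.0536 in wt to between 0.274 and 0.416 in gld on the linear scale, and the groups also stand apart in the other panels.

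Transcripts that supply the sugar substrates of the synthases did not pass the test. Of 7 genes of UDP-glucuronate and UDP-N-acetylglucosamine synthesis 4 were tested and edgeR called 0, with 1 at an unadjusted p under 0.05. That gene, Gfpt1, encodes the entry enzyme of hexosamine synthesis and had 581, 735 and 671 counts in the wt libraries and 1403, 1162 and 1404 in the gld libraries. Its levels did not overlap, at 237.1 ± 33.8 and 314.9 ± 31.8 CPM (SD, n = 3), and its log2 fold change was 0.41 ± 0.14 (SE, edgeR adjusted p = 0.0613). It was past the threshold in DESeq2 (adjusted p = 0.0389), limma-voom (0.0386), with thinned counts (0.0271), with the replicate block (0.0456) and without wt 1 (0.0418). Gfpt2, its paralogue, had a log2 fold change of 0.21 ± 0.33 (SE, edgeR adjusted p = 0.764). The median over the 4 tested genes was 0.60.

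Of the other breakdown genes, 1 of 9 could be tested. Hexa, a subunit of the lysosomal hexosaminidase that trims sugars from the ends of hyaluronan fragments, had 563, 826 and 863 counts in the wt libraries and 1850, 1980 and 2566 in the gld libraries. Its level went from 263.6 ± 2.11 to 503.5 ± 36.4 CPM (SD, n = 3), a log2 fold change of 0.93 ± 0.12 (SE, edgeR adjusted p = 4.29e-05). Cemip2, a surface hyaluronidase gene related to Cemip, had 1, 13 and 0 counts in the wt libraries and 22, 8 and 4 in the gld libraries and was not tested. Hyal4, Hyal5, Hyal6 and Spam1 were listed at 0 throughout.

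Of 25 other hyaluronan-binding genes 9 were tested. Acan and Icam1 passed the count filter only through the gld libraries, so that they could be called in 1 direction only. Of the 7 that passed it in both groups 4 rose, 0 fell and 3 did not pass. Ptx3, a pentraxin that cross-links hyaluronan carrying heavy chains, had 715, 1273 and 1377 counts in the wt libraries and 2303, 2646 and 3337 in the gld libraries. Its log2 fold change was 0.75 ± 0.13 (SE, edgeR adjusted p = 0.000693). Itih5 and Itih2, the heavy chain genes of the inter-alpha-inhibitor family that could be tested, were named after their values were seen and went the same way. Itih5 rose by 1.02 ± 0.18 and Itih2 by 1.63 ± 0.42 on the log2 scale (SE, edgeR adjusted p = 0.000831 and 0.0126), and the call of Itih2 was lost without gld 1 (adjusted p = 0.0772). Itih1, Itih3 and Itih4, and Ambp of the same list, were listed at 0.

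Receptor and cartilage genes made up the rest of that group. Tlr2, an innate immune receptor that hyaluronan fragments are reported to engage, had 54, 143 and 106 counts in the wt libraries and 491, 527 and 772 in the gld libraries, a log2 fold change of 2.01 ± 0.23 (SE, edgeR adjusted p = 1.63e-05). Icam1, an adhesion molecule of endothelium and leukocytes that can bind hyaluronan, had 1, 0 and 0 counts in the wt libraries and 50, 81 and 67 in the gld libraries, and the pooled gld level was 133.6-fold above that of wt (95% exact counting interval 23.7 to 5302; edgeR adjusted p = 0.000187). Acan, the cartilage relative of versican, had no count in wt and 94, 94 and 100 in gld, at least 65.3-fold higher against a floor of 3 counts over the wt group (edgeR adjusted p = 2.01e-05). Hmmr, Layn and Tlr4 did not pass, with log2 fold changes of 0.06 ± 0.27, 0.04 ± 0.30 and 0.18 ± 0.36 (SE, smallest edgeR adjusted p = 0.824).

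Genes that act on versican changed in both directions. Of 9 genes for versican-cleaving proteases and fibulins 6 were tested, 2 rose, 1 fell and 3 did not pass, with a median log2 fold change of 0.56. The protease genes Adamts5 and Adamts15 rose by 1.04 ± 0.16 and 2.09 ± 0.38 on the log2 scale (SE, edgeR adjusted p = 0.000279 and 0.00117). Adamts1, another versican-cleaving protease, had a log2 fold change of 0.07 ± 0.16 (SE, edgeR adjusted p = 0.848). Fbln1, a fibulin that binds versican, fell by 0.48 ± 0.13 (SE, edgeR adjusted p = 0.0205), a call lost without wt 2 (adjusted p = 0.0627), wt 3 (0.088) or gld 3 (0.0579).

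The enzymes that build the chondroitin sulfate chains of versican split as well. Of 18 genes 10 were tested, 1 rose, 3 fell and 6 did not pass, with a median log2 fold change of 0.02. Chsy1, a chain-polymerizing synthase, had 410, 544 and 490 counts in the wt libraries and 1857, 1683 and 1842 in the gld libraries and rose by 1.32 ± 0.14 on the log2 scale (SE, edgeR adjusted p = 8.35e-06). Csgalnact1, which adds the first N-acetylgalactosamine of a chondroitin chain, had 583, 955 and 932 counts in the wt libraries and 198, 173 and 207 in the gld libraries and fell by 2.65 ± 0.15 (SE, edgeR adjusted p = 1.79e-08). The transcripts of Chsy1 and Csgalnact1 thus changed in opposite directions. Not all related enzymes of this list could be compared. Csgalnact2 and Chpf were listed at 0, Chsy3 was not tested, and Chpf2 did not pass (log2 fold change 0.8). Chst11, a chondroitin 4-O-sulfotransferase, fell by 0.84 ± 0.18 (SE, edgeR adjusted p = 0.00353). Chst12, a second one, fell by 0.62 ± 0.20 (SE, edgeR adjusted p = 0.0475), a call lost in 9 of 15 alternatives, among them each of the 6 that leave out 1 library (adjusted p from 0.081 to 0.15).

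Partners of CD44 also went both ways: of 12 genes 7 were tested, 1 rose, 2 fell and 4 did not pass, with a median log2 fold change of 0.33. Ezr and Msn encode ezrin and moesin, which tether CD44 to the actin cortex. Ezr rose by 1.05 ± 0.15 and Msn fell by 0.60 ± 0.15 on the log2 scale (SE, edgeR adjusted p = 0.000161 and 0.00921). Met, the receptor for hepatocyte growth factor, fell by 1.54 ± 0.42 (SE, edgeR adjusted p = 0.0179), and its call was lost without wt 3 (adjusted p = 0.101), gld 2 (0.067) or gld 3 (0.0651). The value for Met was -2.16 without gld 1.

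**Figure D4:**
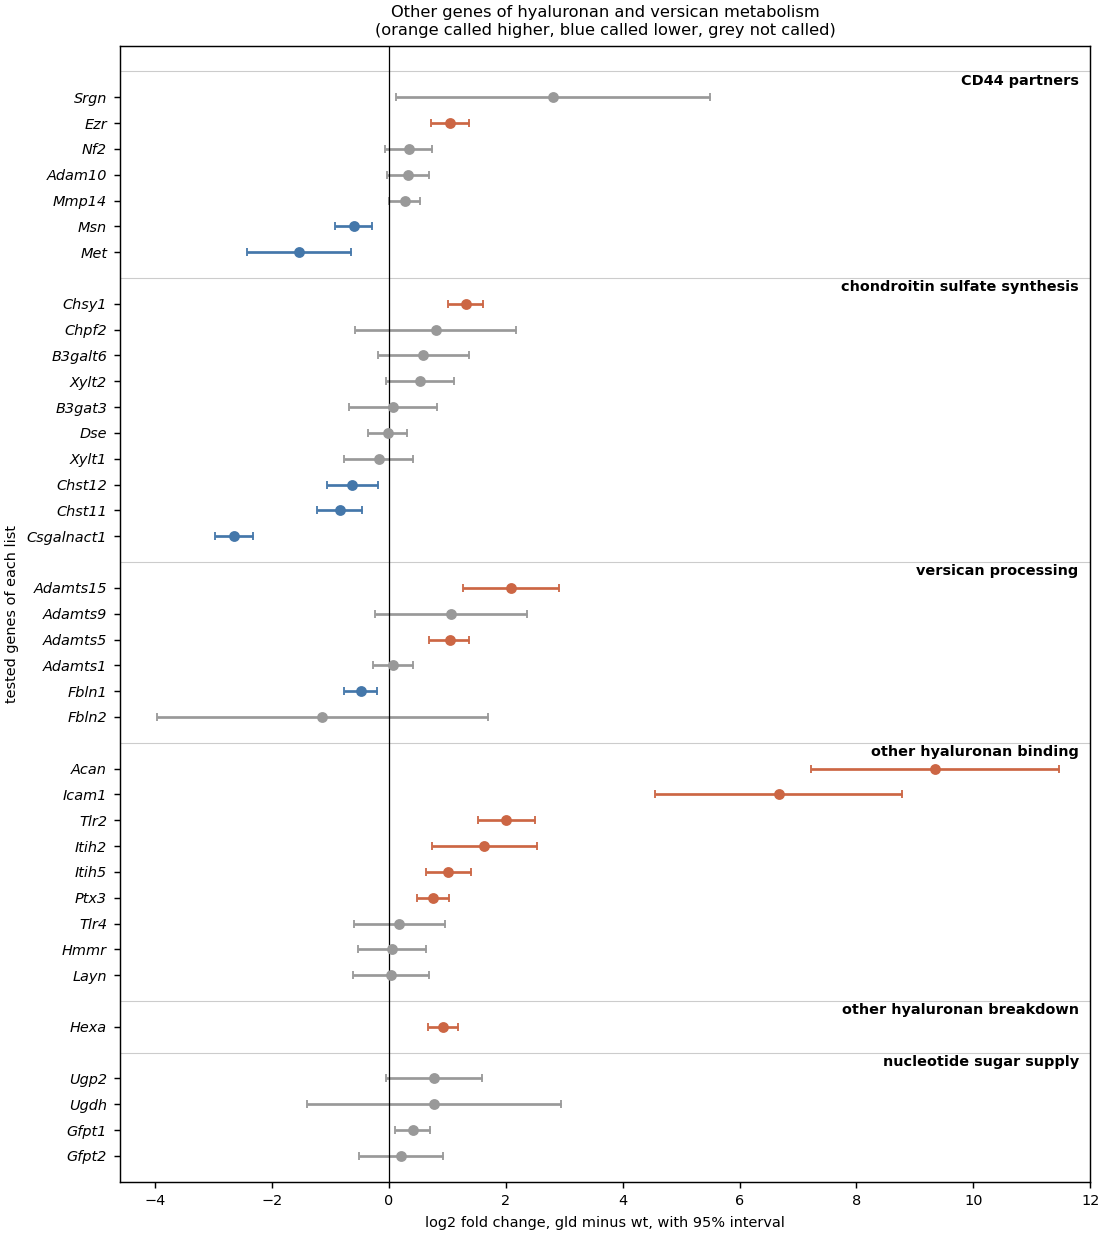
Fitted log2 fold change, gld minus wt, with its 95% interval (x axis) for the tested genes of the 6 other lists of hyaluronan and versican metabolism (y axis). The called genes of the hyaluronan-binding list all lie above 0, and the called genes of the versican, chondroitin sulfate and CD44 lists lie on both sides. The fitted values of Acan, without a count in wt, and Icam1, with 1, depend on the prior count.

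Has2, Tnfaip6, Vcan and Ptx3 are known together from the hyaluronan matrix of the expanding ovarian cumulus, where prostaglandin E2 and EGF-like factors act upstream of them in mouse. Of 10 genes known from that setting, chosen when the decrease of Ptgs2 was already known, 8 were tested, 4 rose, 3 fell and 1, Adamts1, did not pass. The grouping into matrix and signal genes was made with these values known. The 4 that rose were the matrix genes Has2, Tnfaip6, Vcan and Ptx3, whose calls are those given above. The 3 that fell were the upstream signal genes Ptgs2, the inducible cyclooxygenase, Ptger2, a prostaglandin E receptor, and Ereg, the EGF-like factor epiregulin. The other EGF-like genes of the list, Areg (0, 12 and 0 counts in wt, 0, 0 and 9 in gld) and Btc (0 throughout), were not tested. Ereg had 300, 602 and 434 counts in the wt libraries and 141, 168 and 235 in the gld libraries and fell by 1.86 ± 0.21 on the log2 scale (SE, edgeR adjusted p = 1.32e-05). Ptgs2 fell by 5.36 ± 0.13 (SE, edgeR adjusted p = 1.34e-11), and Ptger2, pooled over libraries, was 203-fold above gld in wt (95% exact counting interval 55.7 to 1686). Ptger2 passed the count filter only through wt and could be called lower only. The 7 calls were made under each of the 15 alternatives.

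Among the genes whose pattern over the 6 libraries lay nearest to that of Cemip, by Euclidean distance of log2 CPM centred on each gene, were Pdzrn3 and Tgfbr3, at distances of 0.26 and 0.29. Their log2 fold changes were -1.58 ± 0.13 and -1.55 ± 0.16 (SE, edgeR adjusted p = 5.98e-07 and 8.65e-06). The likeness rests mostly on the difference between the groups.

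Markers of other cell types moved with genotype in the same libraries. The wt libraries held 2011173 to 3105322 counts and the gld libraries 4048258 to 5245546, and the 20 most abundant genes took 17.6% to 19.5% of counts in wt and 27.1% to 28.3% in gld. The 20 macrophage and osteoclast markers summed to 541 to 775.2 CPM in the wt libraries and 2843, 4242 and 6962 CPM in gld 1, 2 and 3. Most of the gld sums was Lyz2, the macrophage lysozyme gene, at 1782, 2941 and 4984 CPM. Most of the wt sums was Cd14 (592, 974 and 771 counts), Cd53 (381, 482 and 378) and Ctsk (350, 576 and 552). Of the 11 tested markers 7 passed the count filter only through gld and were called higher. Of the other 4, Lyz2 and Ctsk rose, and Cd14 and Cd53 fell, with log2 fold changes of -1.56 and -1.12. The calls of Cd14 and Cd53 were kept under all 15 alternatives. DESeq2 called 10 of the 11 and limma-voom 7. Adgre1, Csf1r, Tyrobp, Fcer1g, Ctss, Spi1 and Acp5 were listed at 0. Chondrocyte markers summed to 229.8 to 250.2 CPM in wt and 1276 to 1375 CPM in gld, with Col9a1, Col9a3, Cnmd and Snorc at 0. Col2a1 (9 counts, all in gld 1), Comp (2 counts) and Matn1 (23, 1 and 0 counts in gld) were not tested. Of the 7 tested, all called higher by edgeR and 6 by limma-voom, 5 passed the filter only through gld. Osteoblast markers summed to 16810 to 24640 CPM in wt and 63340 to 69930 CPM in gld, mostly collagen I, with 5 of 7 tested higher, 2 of them through the gld libraries only, and Alpl lower (6 calls in edgeR, 4 in limma-voom). Those 2 were Dmp1, whose call was lost in 9 of 15 alternatives, and Ibsp, whose call was lost in 2. Sp7 had 20 counts in all and Bglap 1, so that the osteoblast label rests on few of its defining markers. Both have a 3′ end that annotated transcripts share, as do Adgre1, Tyrobp, Fcer1g, Ctss, Acp5, Col9a1, Col9a3, Cnmd and Snorc. The same holds for some lymphocyte markers and for the endothelial markers at 0 other than Cdh5. Ptprc and Itgam, with 24 and 3 counts in all and not tested, also have such an end, as do Col2a1 and Comp. Low counts or 0 set no firm bound on genes with such an end. Csf1r and Spi1, however, have an end in a single transcript of the gene and were at 0 all the same. Exons of Hmgxb3 also cover the end of Csf1r. The macrophage label, too, thus rests on part of its markers. All 9 lymphocyte markers and 7 of 9 endothelial markers were at 0, and of 4 tested markers of dividing cells 0 were called by edgeR (2 at an unadjusted p under 0.05, and called by DESeq2 1 and by limma-voom 0).

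In bulk RNA more cells of a type and more RNA per cell cannot be told apart. In gld 1, 2 and 3 the macrophage sum was 2843, 4242 and 6962 CPM. In the same order Has2 was at 97.8, 101.3 and 113.7 CPM, Cemip at 357.5, 353.3 and 273.4, Tnfaip6 at 84.3, 121 and 99.97, and Vcan at 128.2, 160.1 and 143.3. Has2 and Cemip thus had their highest and lowest gld level in the library with the highest macrophage sum, and Tnfaip6 and Vcan were highest in gld 2. Without gld 3 the log2 fold changes were 0.86 for Has2, 2.96 for Tnfaip6, 2.09 for Vcan and -1.56 for Cemip, and all 4 were called. The macrophage sums of gld 1 and 2 still lay above the highest wt sum, 775.2 CPM, which was mostly Cd14, Cd53 and Ctsk. The fit without gld 3 therefore still compared groups that differ in these markers. The part that macrophages or chondrocyte-like cells have in these results was not tested.

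**Figure D5:**
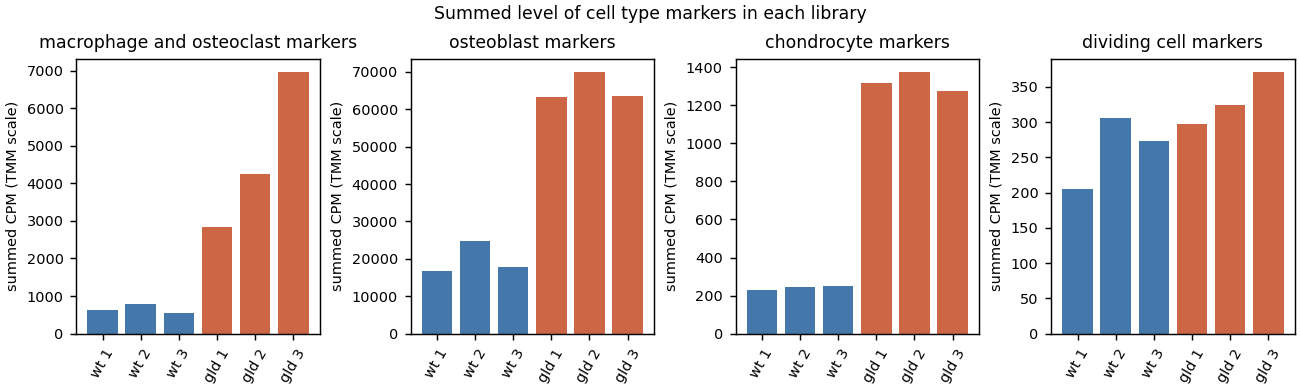
Summed level of cell type markers in CPM on the TMM scale (y axis, from 0) in each library (x axis). Macrophage and osteoclast markers run from 2843 to 6962 CPM over the gld libraries, and chondrocyte markers lie between 1276 and 1375 CPM there against at most 250.2 CPM in wt.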

How the data were processed

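Libraries were made from total RNA with the QuantSeq 3′ FWD kit, per the labels' protocols, so reads fall near the 3′ end of a transcript. Per the series' design text, reads were trimmed with Cutadapt and aligned with STAR. Trim Galore, FastQC, DESeq2 and the mm10 build appear in the submitters' processing notes. Which counter, strand setting and annotation were used is not given in the sources used. The deposited values are whole-number read counts per Ensembl gene, used as deposited. A row without an identifier was left out, and 0 sample columns were unused. Symbols were found for 51883 identifiers, and positions and 3′ ends come from GENCODE M21 (GRCm38).

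Genes were filtered with filterByExpr (minimum count 10, total 15), scaled by TMM, and tested with the quasi-likelihood test of edgeR 4.0.16 in R 4.3.3, gld against wt, 3 libraries each, with no covariate and Benjamini-Hochberg adjustment at 0.05. Standard errors follow from the fold change and its F statistic (|log2 fold change|/√F), and CPM are on the TMM scale, mean ± SD. The test was checked on simulated counts. The 10 members are all named, with up to 4 called genes per other list by adjusted p, or up to 2 by counts where none was called. Members and lists were chosen with earlier results of these data known. Library totals are given with the markers, and intervals and floors cover counting error only. Same-numbered wt and gld libraries did not deviate together, so the numbers were not taken as pairs. Alternatives were RLE, library size and upper quartile scaling, 2 other filters, DESeq2 1.42.0, limma-voom (limma 3.58.1), thinning to the smallest library, a replicate block and leaving out each library. Of the genes nearest in pattern to Cemip, 1 is not reported here.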

Additional observations from a re-analysis of the deposited data

How the results depend on the processing

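Over 15 alternatives the 4 called members kept their call and direction: log2 fold changes ran from 0.80 to 1.08 for Has2, 2.67 to 3.24 for Tnfaip6, 1.95 to 2.43 for Vcan and -1.81 to -1.55 for Cemip, with a largest adjusted p of 0.0205, for Has2. Has1 ran from -0.48 to 0.07 without each library in turn, with the change of sign to 0.07 without wt 1, and was not called. The count of all called genes ran from 1224 to 1695. The count for nucleotide sugar genes was 1 in DESeq2, limma-voom, with thinned counts and with the replicate block, and 0 to 1 without each library, against 0. The cause was not tested. With the replicate block 1359 genes and the same number of members, 4, were called, and the correlations of same-numbered libraries' deviations were -0.02, -0.01 and -0.02, so the numbers are not shown to pair the libraries. Cd44 and Hapln1 were not tested under 1 alternative each. Counts of at most 38 per library leave Cd44 and Hapln1, and the 3 untested members, without a usable comparison.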

Other observations

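The 2 hyaluronan gene neighbourhoods on single chromosomes gave uneven counts. On chromosome 9 Tusc2 and Naa80, which lie next to or over Hyal2 and Hyal1, held 1020 and 720 counts over the 6 libraries, while Hyal3 had 8 counts in wt 3 and 3 in gld 1 and no other. The antisense gene model Gm9917, which overlaps Hyal2, had 31 counts, of which 27 were in gld, so reads were assigned at this locus although Hyal2 itself was listed at 0. On chromosome 13 the processed pseudogene Gm8546 inside Hapln1 had 12 counts in gld 3, the gld library in which Hapln1 was at 0.

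The variation among libraries of a group differed between members. The dispersion fitted by edgeR, given as a biological coefficient of variation, was 12.9% for Cemip, 16.5% for Has2, 19.3% for Vcan and 22.2% for Tnfaip6, and 46.9% for Has1, 88.2% for Cd44 and 124.6% for Hapln1, the members with the fewest counts among those tested.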
